A study of Bos taurus with 8 samples.

Results

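The heat shock chaperones and ER stress factors described here are 10 genes: HSPA8, HSPA1A, HSPA5, HSP90AA1, HSP90AB1, HSP90B1, HSPB1, DNAJB1, ATF4 and XBP1. Their probes were found as the non-control probes of a bovine Agilent array whose accession maps to one of these genes, which gave 33 of 43653 probes (10 of 12639 named genes). The arrays carried Cy3-labelled cRNA of neutrophils from the jugular blood of periparturient female Holstein Friesian cows, with no treatment named. The group C-14 holds 4 arrays of blood drawn 14 days before the expected calving date, and the group C+7 holds 4 arrays of blood drawn 7 days after calving. The age of the cows is not given in the sources used here. The comparison asks how neutrophil transcripts differ between late pregnancy and early lactation.

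Only 3 cows are named by the series text, fewer than the arrays of a time point, and which cow an array came from is not given. P-values here measure the spread between arrays: they are too small where arrays of the same time point share a cow, and too large where a cow was sampled at both. The 4 arrays of a time point also shared 1 slide and 1 scan, and 0 of the 2 slides held both time points, so slide and time cannot be told apart.

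Heat shock proteins are chaperones that bind unfolded stretches of other proteins, fold or hold them, and pass them on to one another. In the cytosol the HSP70 proteins HSPA8 and HSPA1A work with J-domain partners such as DNAJB1, and the HSP90 proteins finish the folding of kinases and receptors. In the endoplasmic reticulum (ER), HSPA5 and HSP90B1 do the same work for secreted and membrane proteins, and an excess of unfolded protein there starts the unfolded protein response, whose transcription factors include ATF4 and XBP1. Neutrophils leave the marrow with most of their granule proteins already made. In other cells some of these genes are known to respond quickly to heat, handling or secretory load, while others are constitutive.

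The arrays differed in how much they detected, which touches each result here. The extraction software called 2201 to 4486 probes (5.04% to 10.3%) well above background on 6 arrays, which are replicates 1 to 3 of each time point. It called 761 (1.74%) on before-calving replicate 4 and 387 (0.887%) on after-calving replicate 4. Over the 1091 probes well above background on these 6 arrays, they correlated with one another at r between 0.687 and 0.951. Before-calving replicate 4 correlated with them at 0.525 to 0.704, and after-calving replicate 4 at -0.0807 to 0.261. The choice of probes by detection on the 6 brighter arrays favours those arrays here. On before-calving replicate 3 the software had applied a surface correction (root mean square 1.83, and 0 on the other arrays), and probes near background there could have high processed values, such as 736 for the HSPA8 probe A_73_P403651 at a background-subtracted signal of 0.467. Therefore 2 comparisons were made with limma. The first used the processed signal of all 8 arrays (n = 4 per time point), and the second the background-subtracted signal, free of the surface correction, on the 6 brighter arrays (n = 3 per time point). Signal is in the scanner's arbitrary units, and scaled log2 signal is the log2 signal less the array's 75th percentile.

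Only some of the members could be measured. Of the 33 member probes, 13 (39.4%) were well above background on at least 1 array, against 19.0% of all named probes, and 20 were so on no array. No member probe had a spot flagged as an outlier, and no member probe was saturated. By array, 10, 8, 12 and 2 member probes were well above background on before-calving replicates 1 to 4, and 9, 9, 8 and 0 on after-calving replicates 1 to 4. The dim arrays thus carried almost no member signal, and on after-calving replicate 4 none. The 20 undetected probes had background-subtracted signals between -10.9 and 16.7 on every array.

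**Figure D1:**
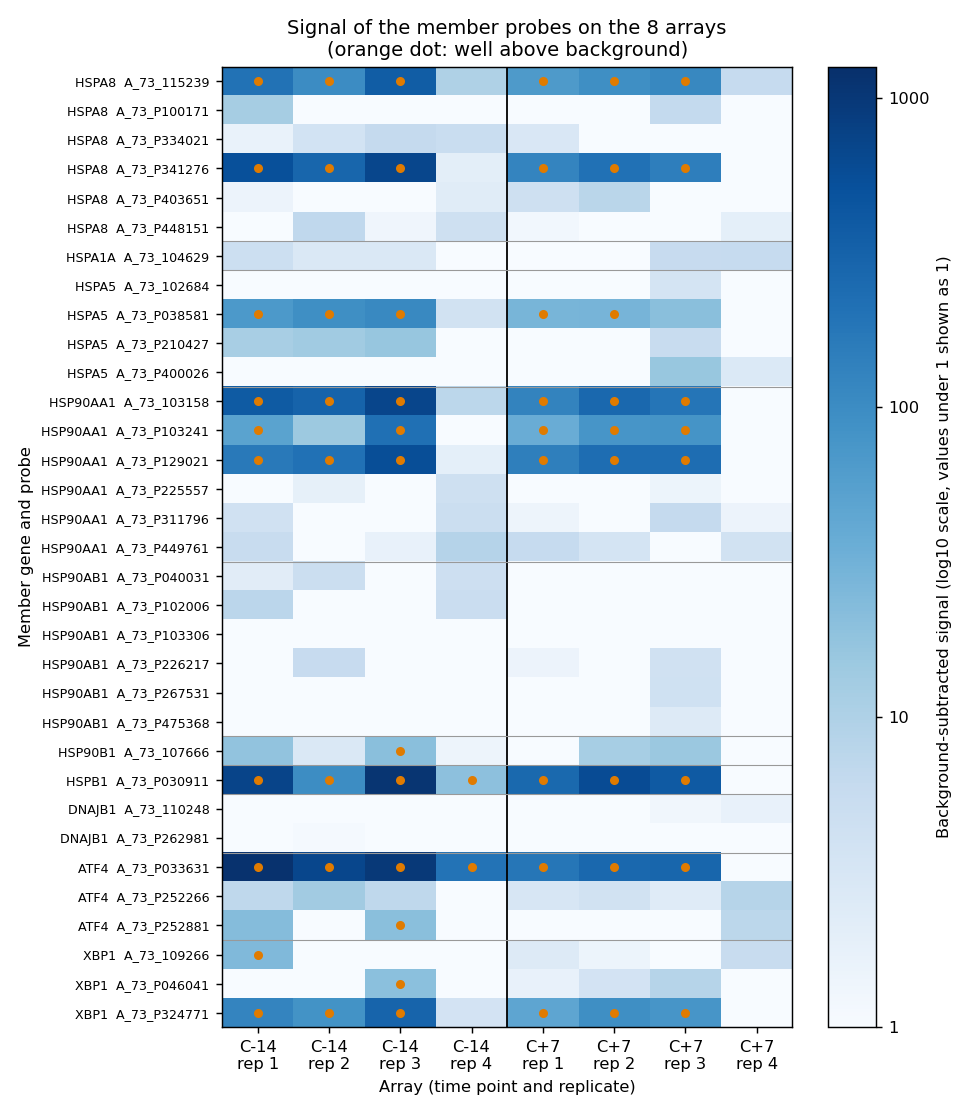
Background-subtracted signal (colour, log10 scale, values under 1 shown as 1) of the 33 member probes (rows, by gene) on the 8 arrays (columns, by time point and replicate). Orange dots mark the probes called well above background; 20 probes have none, and the column of after-calving replicate 4 has 0.

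HSPA8, the constitutive cytosolic HSP70, was lower after calving on its brighter probe. This probe, A_73_P341276, read 527, 283, 681 and 2.06 units on before-calving replicates 1 to 4, and 122, 209, 146 and 0.857 on after-calving replicates 1 to 4. It was well above background on the 6 brighter arrays and not on either replicate 4. After scaling, its log2 signal was -0.05, -0.27 and -0.09 before calving and -1.16, -0.81 and -1.07 after calving. The 3 after-calving arrays all lay under the 3 before-calving arrays, and the arrays of a time point lay close together (SD 0.12 before and 0.18 after). HSPA8 fell by 0.88 on the log2 scale (SE 0.15, limma's Benjamini-Hochberg adjusted p = 0.0428 over 2225 probes), a signal 1.84-fold lower after calving. It was the only member probe to pass the threshold of 0.05.

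The second measured HSPA8 probe, A_73_115239, gave a smaller difference in the same direction that did not pass. It read 202, 99.7, 364 and 9.88 units on before-calving replicates 1 to 4, and 65.9, 91.8, 112 and 5.94 on after-calving replicates 1 to 4. Its scaled log2 signal was -1.43, -1.78 and -0.99 before and -2.04, -1.99 and -1.45 after calving, and the ranges overlapped because after-calving replicate 3 lay above before-calving replicate 2. The difference on this probe was -0.43 (SE 0.28, limma adjusted p = 0.445). The 4 other HSPA8 probes were above background on no array. Of the other genes of the HSP70 system, HSPA1A, the stress-inducible HSP70, has 1 probe (A_73_104629), with background-subtracted signals of -0.39 to 5.81 on the 8 arrays. DNAJB1, an HSP40 that stimulates HSP70, has 2 probes, and the higher of their signals was 1.72. Neither gene was measured above background at either time point, so nothing can be said of their change at this signal.

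HSP90AA1, the inducible cytosolic HSP90 alpha, was measured by 3 of its 6 probes, which did not move together. On A_73_103158 the signal was 384, 312, 698 and 7.31 units on before-calving replicates 1 to 4, and 128, 270, 187 and -2.09 on after-calving replicates 1 to 4. Scaled, this was -0.50, -0.13 and -0.05 before and -1.09, -0.44 and -0.71 after calving, a difference of -0.52 (SE 0.23, limma adjusted p = 0.285). The ranges overlapped by a little, since after-calving replicate 2 lay just above before-calving replicate 1.

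The other measured HSP90AA1 probes had positive differences. A_73_P129021 read 169, 209, 553 and 1.95 units before and 140, 236, 231 and -1.62 after calving. Its scaled log2 signal was -1.69, -0.71 and -0.39 before and -0.96, -0.64 and -0.41 after calving, with a difference of 0.26 (SE 0.39, limma adjusted p = 0.728). The after-calving arrays lay inside the before-calving range. A_73_P103241 read 50.04, 14.8, 216 and -5.02 units before and 37.4, 75.6, 81.7 and -0.09 after calving. It was not well above background on before-calving replicate 2, which was set to the common floor of -3.54. Its scaled values were -3.45, -3.54 and -1.75 before and -2.86, -2.27 and -1.91 after calving (difference 0.56, SE 0.58, limma adjusted p = 0.629). For HSP90AA1 the probes therefore disagreed in sign, and none passed the threshold. Over the 6 arrays A_73_103158 correlated with A_73_P103241 at r = 0.05 and with A_73_P129021 at 0.26, while the latter pair correlated at 0.74. HSP90AB1, the constitutive cytosolic HSP90 beta, has 6 probes and none above background, the highest signal being 7.63.

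HSPB1, a small heat shock protein that holds unfolded proteins without using ATP and binds actin filaments, was among the 2 member genes measured on all before-calving arrays. Its probe A_73_P030911 read 705, 98.1, 1089 and 19.6 units on before-calving replicates 1 to 4, and 258, 583, 396 and -1.07 on after-calving replicates 1 to 4. Scaled over the 6 brighter arrays, it was 0.37, -1.80 and 0.59 before and -0.07, 0.67 and 0.37 after calving. Before-calving replicate 2 stood 2.39 under the highest before-calving array, and the other 5 arrays overlapped. The difference was 0.60 (SE 0.70, limma adjusted p = 0.658), and without before-calving replicate 2 it was -0.22. HSPB1 thus has no direction that held across the arrays. On all 8 arrays its difference was 0.09 (SE 1.13, limma adjusted p = 0.983).

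HSPA5 (BiP), the HSP70 of the ER, had lower readings after calving that did not pass the threshold. The 1 measured of its 4 probes, A_73_P038581, read 68.3, 92.2, 109 and 3.95 units on before-calving replicates 1 to 4, and 27.7, 28.5, 20.6 and -2.39 on after-calving replicates 1 to 4. Its scaled log2 signal was -2.997, -1.89 and -2.73 before calving. After calving it was -3.30 on replicate 1 and at the floor of -3.54 on replicates 2 and 3, so the difference is a lower limit of its size. The probe was well above background on all 3 before-calving arrays and on 2 of the 3 after-calving arrays, so it entered the test only through the time point where it was higher, and neither its p nor the lack of overlap supports a difference. The difference was -0.92 (SE 0.32, limma unadjusted p = 0.0329, adjusted p = 0.192). HSP90B1 (GRP94), the HSP90 of the ER, has 1 probe, A_73_107666, which was above background only on before-calving replicate 3, at 20.7 units, and was not tested.

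ATF4, the transcription factor whose protein is made when eIF2alpha is phosphorylated, showed the largest difference in the group by size. Its brightest probe, A_73_P033631, read 1158, 675, 957 and 199 units on before-calving replicates 1 to 4, and 183, 267, 287 and -2.60 on after-calving replicates 1 to 4. It was well above background on 7 arrays. Its scaled log2 signal on the 6 brighter arrays was 1.09, 0.98 and 0.40 before and -0.57, -0.45 and -0.10 after calving. The time points did not overlap, the nearest arrays being before-calving replicate 3 and after-calving replicate 3. The signal was 2.29-fold lower after calving (log2 difference -1.20, SE 0.25), and this missed the threshold (limma unadjusted p = 0.00427, adjusted p = 0.0634). Among all 2225 probes tested it was the 108th from the lowest difference.

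On all 8 arrays, ATF4 read 0.06, 0.86, -2.60 and 0.79 on before-calving replicates 1 to 4 and -1.93, -1.25, -0.68 and -4.10 on after-calving replicates 1 to 4 (processed signal, scaled log2). Before-calving replicate 3, which carried the surface correction, lay among the after-calving arrays. The value of after-calving replicate 4 is the lowest processed value of that array. The difference was -1.76 (SE 1.14, limma adjusted p = 0.983). On the same 8 arrays the background-subtracted signal with a common floor gave -1.93 (SE 0.31, limma unadjusted p = 0.000472, adjusted p = 0.224). A second ATF4 probe, A_73_P252881, was above background only on before-calving replicate 3 (20.9 units), and the third, A_73_P252266, on no array.

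XBP1, a transcription factor that IRE1 activates by splicing its mRNA, did not pass on its 1 tested probe. A_73_P324771 read 121, 82.3, 296 and 3.67 units on before-calving replicates 1 to 4, and 46.8, 91.6, 76.4 and -1.56 on after-calving replicates 1 to 4. The scaled values were -2.17, -2.05 and -1.29 before and -2.54, -1.999 and -2.004 after calving, and the ranges overlapped. The difference was -0.34 (SE 0.30, limma adjusted p = 0.588). The array does not say whether a probe separates the spliced from the unspliced form. XBP1 probe A_73_109266 was above background only on before-calving replicate 1 (24.2 units), and A_73_P046041 only on before-calving replicate 3 (19.9 units).

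**Figure D2:**
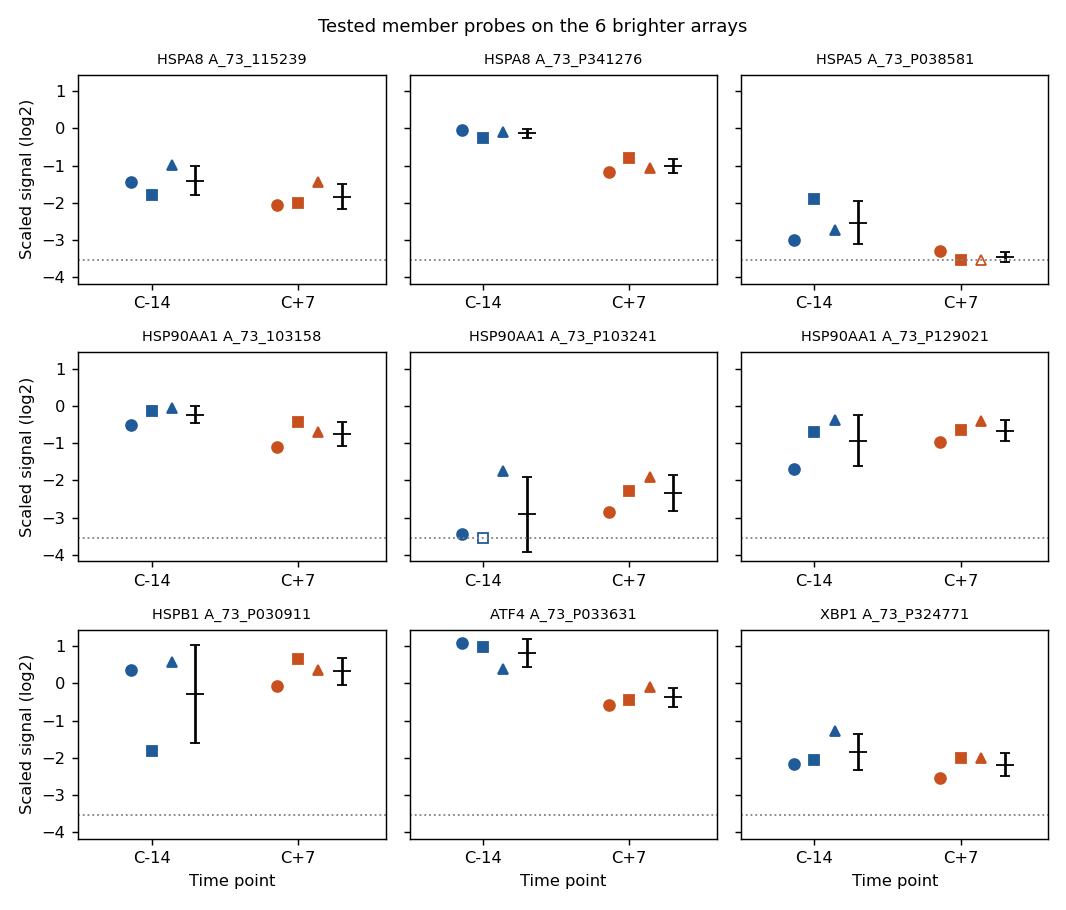
Scaled log2 signal of the 9 tested member probes on the 6 brighter arrays, by time point. Circles, squares and triangles are replicates 1, 2 and 3, numbers that no label ties to a cow. Bars are the mean and SD (n = 3), open symbols are arrays not well above background, and the dotted line is the floor at -3.54. HSPA8 A_73_P341276, HSPA5 and ATF4 have no overlap between the time points, and HSPB1 has before-calving replicate 2 at -1.80 under the other arrays.

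Over the members as a group, 9 probes of 6 genes passed the filter on dim probes in the 6-array comparison and 2 probes of 2 genes in the 8-array comparison. A probe that passed through 1 time point alone was kept by its detection there, which favours a difference. This holds for HSPA5 A_73_P038581 and HSP90AA1 A_73_P103241, and several probes share a gene. In the 6-array comparison 1 of 9 member probes was called, where 5.03% of all 2225 tested probes were called (3.19% lower and 1.84% higher after calving). Of the 9 differences, 6 were negative, against 54.2% of all tested probes. In 3 of the 9 the arrays of the time points did not overlap with the after-calving arrays lower, against 15.1%, and in 0 with the after-calving arrays higher, against 11.1%. The same 3 probes, of HSPA8, HSPA5 and ATF4, had an unadjusted p under 0.05, a level that 20.6% of all tested probes reached. Of the 7 member probes well above background on all 6 arrays, which leaves out HSPA5, 5 had negative differences, 2 did not overlap with the after-calving arrays lower and 2 (the same HSPA8 and ATF4 probes) had an unadjusted p under 0.05. Over all 1091 such probes these shares were 55%, 18.1% and 23.5%. The median difference of the member probes was -0.43 and that of all tested probes -0.05. In the 8-array comparison 0 of 2 member probes and 0% of 475 probes were called (7 probes, 1.47%, at an unadjusted p under 0.05, none of them a member).

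**Figure D3:**
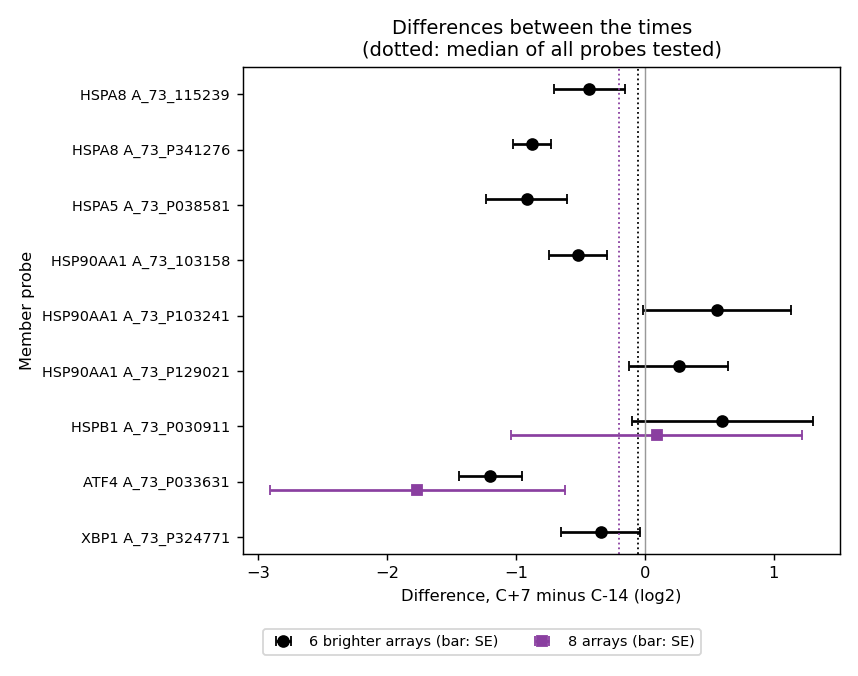
Log2 difference, after minus before calving, of the tested member probes, with SE, in the comparison of the 6 brighter arrays (black circles) and of 8 arrays (purple squares); dotted lines are the medians of all tested probes (-0.05 and -0.20). In the 6-array comparison 6 probes lie left of 0 and 3 right of it, and ATF4 has an SE of 0.25 there and of 1.14 in the comparison of 8 arrays, which also uses another signal.

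The arrays that were high or low were partly the same from member to member. After-calving replicate 1 gave the lowest scaled value for both HSPA8 probes, HSP90AA1 A_73_103158, ATF4 and XBP1. Before-calving replicate 3 gave the highest for HSPA8 A_73_115239, the 3 HSP90AA1 probes and XBP1. Over the 6 arrays HSPA8 A_73_P341276 correlated with ATF4 at r = 0.87 and with HSP90AA1 A_73_103158 at 0.80, and HSPA5 with HSPB1 at -0.82. HSPA5 had 2 of its values at the floor, and before-calving replicate 2 was its highest array and the lowest of HSPB1. These are descriptions over 6 arrays that include the difference between the time points.

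The surface correction on before-calving replicate 3 moved the member probes of that array in opposite directions. The ratio of processed to background-subtracted signal there ran from 0.136 for HSPA5 A_73_P038581 to 4.30 for ATF4 A_73_P252881 over the 12 member probes detected on it. It was above 1 for 7 and under 1 for 5. Among the 3 HSP90AA1 probes the ratio was 0.212 for A_73_103158, 1.27 for A_73_P129021 and 2.12 for A_73_P103241. The HSPA8 probe A_73_P341276 was hardly moved (1.04), while its neighbour in the gene, A_73_115239, was multiplied by 0.475 and ATF4 A_73_P033631 by 0.512.

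**Figure D4:**
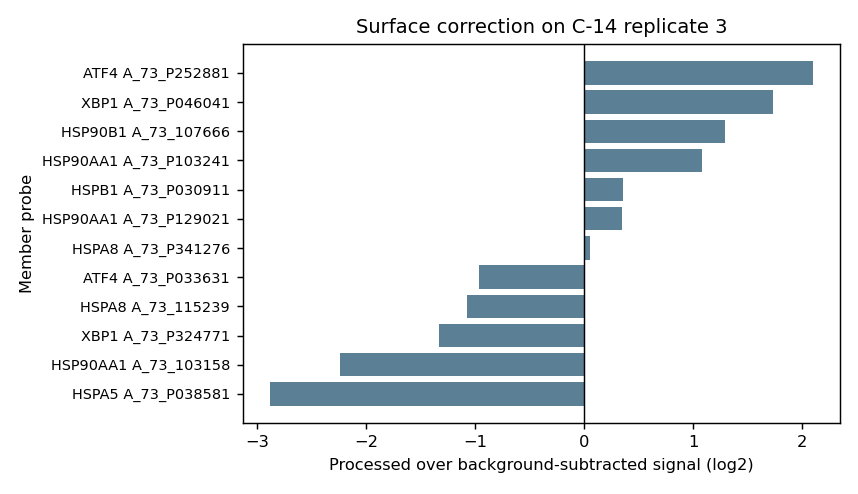
Log2 ratio of processed to background-subtracted signal on before-calving replicate 3 for the 12 member probes detected there (bars from 0). The ratios run from 0.136 (HSPA5) to 4.30 (ATF4 A_73_P252881), and 2 HSP90AA1 probes lie on the side opposite to the other.

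The one call among the members depended on the settings. HSPA8 A_73_P341276 had a negative difference in 16 of 16 alternatives, from -1.51 to -0.01, and lay under the median of all tested probes in each, but it was called in 1 of them, the fit of 1 probe per gene (limma adjusted p = 0.0426). Leaving out any 1 of the 6 arrays ended the call: the limma adjusted p was 0.067, 0.0567 and 0.0953 without before-calving replicates 1, 2 and 3, and 0.096, 0.094 and 0.202 without after-calving replicates 1, 2 and 3. Adding before-calving replicate 4, which read 2.06 units, gave -0.34 (limma adjusted p = 0.891). That setting also set the common floor anew with this dim array included, and the median of all tested probes became 0. HSPA8 A_73_115239, HSP90AA1 A_73_P103241 and XBP1 A_73_P324771 then differed by 0. The part of the floor in the smaller HSPA8 difference was not tested. ATF4 A_73_P033631 was called where the scaling percentile was taken over all probes (-1.83, limma adjusted p = 0.0379), a setting that moved the median of all tested probes to -0.58. Both were near 0 in the authors' series matrix, where that median was 1.03. HSPA5 passed in none of its 14 alternatives. It lay under the median of all tested probes in each, but these reuse arrays on which its detection favoured the before-calving side. That count therefore does not support a difference.

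**Figure D5:**
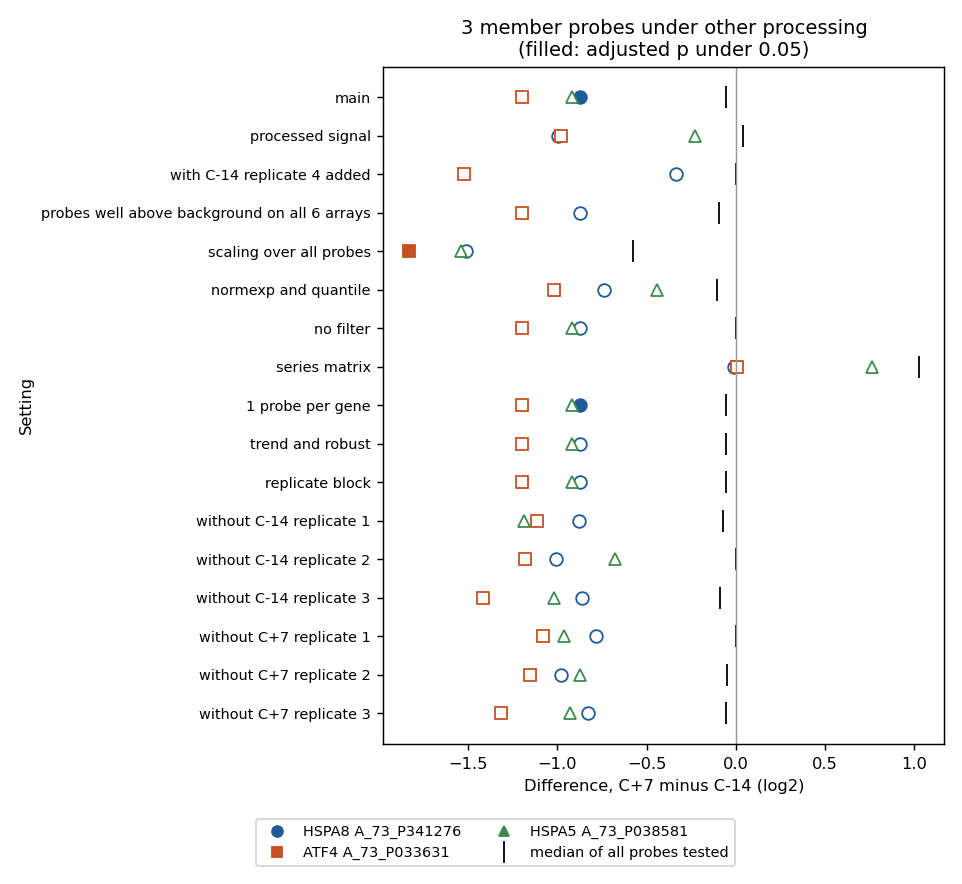
Log2 difference, after minus before calving, of HSPA8 A_73_P341276 (circles), ATF4 A_73_P033631 (squares) and HSPA5 A_73_P038581 (triangles) under each setting of the 6-array comparison; filled symbols have a limma adjusted p under 0.05 and black ticks are the median of all tested probes. All symbols lie left of the tick of their setting, and 3 are filled. HSPA5 has no value in 2 settings, where its probe did not pass the filter. It was tested only through the time point where it was higher, so its side of the ticks does not support a difference.

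Transcripts of other blood cells differed between the same arrays, as did neutrophil genes. In the comparison of the 6 brighter arrays, 3 of 4 T cell probes (CD247 on 2 probes, and CD3E) were called lower after calving, against 3.19% of all tested probes. The CD3E probe was detected on 3 before-calving arrays and 0 after-calving ones. The other tested probe, of CD4, differed by -0.11 with overlapping ranges (limma adjusted p = 0.966), and CD2 and CD3D were undetected. The summed unscaled signal over the T cell list was 2400 to 4079 before and 433 to 589 after. The sums in this and the next paragraph were not corrected for the brightness of the arrays. They therefore mix brightness with the content of the preparations. The natural killer sum was 179 to 246 before and 38.9 to 66.1 after, with GNLY called lower (detected on 3 arrays before and 1 after) and KLRD1, NCR1 and PRF1 undetected. The monocyte sum was 332 to 519 before and 75.2 to 98.1 after, with CSF1R called lower and CD68 and VCAN undetected. The eosinophil sum was 406 to 996 before and 42.5 to 55.9 after, with ALOX15 called lower and CCR3 undetected. Only these 2 of the 5 eosinophil genes were on the array, so this sum rests on ALOX15 alone. None of 3 B cell probes was called (366 to 467 before, 179 to 293 after, JCHAIN undetected), nor the 1 erythroid probe (110 to 650 before, 367 to 917 after), and platelet and plasma cell genes were undetected.

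Of 9 neutrophil probes, 4 were called higher after calving (LTF on 2 probes, MMP9, and S100A12 on 1 of 2), against 1.84% of all tested probes. The LTF and MMP9 probes were above background on 0 before-calving and 3 after-calving arrays, so they were tested only through the time point where they were high. The after-calving arrays lay higher without overlap for 6 of the 9 probes, against 11.1% of all tested probes. These include S100A9 (0.71, limma adjusted p = 0.242) and TREM1 (1.55, 0.312), which were not called. Of the 9 probes 7 were tested through 1 time point alone, S100A9 and TREM1 among them. CXCR1, a receptor for CXCL8, had a difference of -1.25 with no overlap (limma adjusted p = 0.0586), and CXCR2 of -0.06. The neutrophil sum was 6902 to 10919 before and 22499 to 27904 after, of which S100A12 A_73_P050466 made up 88.7% to 96.7%. Without that probe it was 486 to 975 before and 800 to 1237 after, which overlap. ITGAM and S100A8 were undetected. The chaperone and ER stress genes are known to be expressed broadly, in these cell types too. The part of the cell mixture in the lower HSPA8, ATF4 and HSPA5 signals was not tested. In RNA of a whole preparation, fewer cells of a type and less RNA per cell cannot be told apart.

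Other genes of the same pathways, from lists drawn up by function, gave no call in either comparison; some were called under other settings, given with each gene. Over all probes tested on the 6 arrays, 5.03% were called, 54.2% had negative differences and 15.1% did not overlap with the after-calving arrays lower, and 0 calls among so few probes is near that share. Of 52 cytosolic chaperone and heat shock response genes, 49 were on the array, 23 were detected on at least 1 array and 7 (8 probes) were tested in the 6-array comparison. Of these 8 probes 0 were called, 7 had negative differences and 1 a positive one, between -0.95 and 0.33, with a median of -0.38. The lowest were TCP1, a subunit of the TRiC chaperonin (-0.95, SE 0.37, limma adjusted p = 0.242), and DNAJA1, an HSP40 partner of HSPA8 (-0.91, SE 0.20, limma adjusted p = 0.0751, and -0.04 on a second probe near the floor). The first DNAJA1 probe was called without before-calving replicate 1 (limma adjusted p = 0.0494) and without before-calving replicate 2 (0.0236). The highest were AHSA1, which stimulates the HSP90 ATPase (0.33), and HSPB6, a small heat shock protein (-0.03). The time points did not overlap, with the after-calving arrays lower, for 3 of the 8 probes: TCP1, the first DNAJA1 probe and CCT2, a TRiC subunit (-0.63, named after its values were seen). Of the 8 probes 5 were tested through 1 time point alone, CCT2 among them.

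Of 58 ER stress and ER folding genes, 52 were on the array, 30 were detected and 15 (20 probes) were tested. None of the 20 probes was called, 11 differences were negative and 9 positive, from -2.32 to 1.43, with a median of -0.18. DDIT3 (CHOP), a transcription factor that ATF4 induces, had the lowest (-2.32, SE 0.67, limma adjusted p = 0.135). Its scaled log2 signal ran from -2.36 to 0.25 before calving and from -3.54 to -3.36 after, with no overlap. DDIT3 was called among probes well above background on all 6 arrays (limma adjusted p = 0.0428) and with scaling over all probes (0.0272). CREB3, an ER-bound transcription factor, was next (-0.89, SE 0.24, limma adjusted p = 0.119), also with no overlap; its probe was detected on 3 arrays before and 1 after calving. It was called with scaling over all probes (limma adjusted p = 0.0472) and without before-calving replicate 2 (0.0149). Of the 20 probes 10 were tested through 1 time point alone, 5 did not overlap with the after-calving arrays lower and 2 with them higher. SSR4, a subunit of the translocon-associated protein complex, had the highest (1.43, SE 0.40, limma adjusted p = 0.127), with -2.71 to -1.33 before and -0.67 to -0.25 after calving. CALR (calreticulin), an ER chaperone of glycoproteins, differed by 1.06 (SE 0.95) on A_73_106913 and by -0.68 (SE 0.28, limma adjusted p = 0.251) on A_73_P285466. The first was detected on 2 arrays before and 3 after calving, with a before-calving value at the floor, so it was tested through 1 time point alone. The second was detected on 3 arrays at each time point, with no overlap. The probes disagreed in sign, so the direction was not settled. On 8 arrays SSR4 (0.22) and ATF6B (0.67) were the tested genes of this list, and neither was called.

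Immediate early genes, which cells induce within minutes of handling or stimulation, were set beside the members. Of 16 such genes 13 were on the array, 7 were detected and 5 were tested, each with 1 probe. All 5 had negative differences, from -1.28 to -0.13 with a median of -0.67, where 54.2% of all tested probes had negative ones. Of the 5 probes 0 were called, against 5.03% of all tested probes. The after-calving arrays lay lower without overlap for 2 of them, against 15.1%. NFKBIA, the inhibitor of NF-kB, had a difference of -1.28 (SE 0.30, limma adjusted p = 0.0838), and KLF6, a zinc finger transcription factor, also -1.28 (SE 0.32, limma adjusted p = 0.0968), both with no overlap. Without before-calving replicate 1 both were called (limma adjusted p = 0.0292 for each). DUSP1, a MAP kinase phosphatase, differed by -0.34 and FOS, a subunit of AP-1, by -0.13. The FOS probe was detected on 3 arrays before and 0 after calving, so it was tested only through the time point where it was higher. On 8 arrays NFKBIA (-0.97), KLF6 (-0.80) and FOSB (-0.70) were tested and not called. The relation of these genes to the HSPA8 and ATF4 signals was not tested.

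Among 674 probes of other named genes above the floor on all 6 arrays, those most like HSPA8 A_73_P341276 by Pearson correlation of scaled log2 signal over the 6 arrays were DDX6 (0.987), TMEM50A (0.976) and TGFBI (0.973). Those most like ATF4 A_73_P033631 were DDX17 (0.981), BOLA-DMB (0.941) and PGP (0.939). TMEM50A (-1.17) and PGP (-1.29) were called lower after calving (limma adjusted p = 0.0223 for each). DDX6 (-1.35, limma adjusted p = 0.0522), TGFBI (-0.91, 0.0918), DDX17 (-0.99, 0.157) and BOLA-DMB (-1.40, 0.0817) were not. These correlations include the difference between the time points and are a description of 6 arrays.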

How the data were processed

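Each array's deposited scanner file gives the intensity of its spots, as written by Agilent Feature Extraction; the file headers name version 10.10.1.1 with protocol GE1_1010_Sep10, and the submitters' processing notes version 9.1. Per the file headers, the processed intensity and the background-subtracted intensity stand side by side. The authors' series matrix is on a log2 scale; its steps are not stated, and its scale, centring and direction were read by setting it against the scanner values (lowest r of array differences 0.9998). Its column medians lay between -0.128 and 0.0289, and at -2.61 for before-calving replicate 3. Per the labels' protocols, TRIzol was used for the RNA.

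Control spots and outlier spots were left out and every probe was fitted singly. A call of well above background is the software's. Accessions were named through RefSeq genes of assembly ARS-UCD2.0, for names only, which named 26832 of 43653 probes. Log2 signal was scaled by the array's 75th percentile, over 115 probes well above background on all 8 arrays or 1091 on the 6 arrays, and on the 6 arrays raised to a floor of -3.54. A probe was tested where well above background on all arrays of 1 time point. Tests were limma 3.58.1 in R 4.3.3 (two-sided, Benjamini-Hochberg, threshold 0.05), tested on simulated data. The number of arrays, the 2 dim arrays and values at the floor limit the precision. Normexp, an alternative, used the median spot signal in place of the planned mean, with the median background.

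The members, lists, tests and the 6-array comparison were chosen with earlier results of these data known. Named genes were all members, and from each list the 2 tested genes with the highest and the 2 with the lowest difference on the 6 arrays, any called, and the 3 genes most like HSPA8 and ATF4. Probe and promoter sequences were not analysed here.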

Additional observations from a re-analysis of the deposited data

How the results depend on the processing

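Of 172 alternative values for member probes 140 kept direction and side of the threshold, and of 183 for related genes 163. Differences of 0, with both time points at the floor, have no direction and are counted among those kept. On 6 arrays 112 probes were called; 12 with processed signal, 12 with before-calving replicate 4 added, 50 among probes well above background on all 6, 1 with no filter, 5 (5 higher, 0 lower) in the series matrix, 61 with trend and robust, and 4 to 167 with 1 array left out (69 without before-calving replicate 3, and 56, 7 and 4 without after-calving replicates 1, 2 and 3). In each of these, and with normexp, the member calls went from 1 to 0. Scaling over all probes gave 114 calls, 15 higher and 99 lower, against 41 and 71, and normexp 36 and 42. On 8 arrays no filter gave 1 call, 1 array left out 0 to 1, and leaving out both replicates 4, chosen after seeing the data, 12.

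Directions turned as follows, and the cause was not tested. With processed signal HSP90AA1 A_73_103158 was at 0.13 and DUSP1 at 0.0023. With before-calving replicate 4 added, where the common floor was set anew and the median of all tested probes was 0, SSR4 was at -0.13. With scaling over all probes HSP90AA1 A_73_P103241 was at -0.034, A_73_P129021 at -0.37, HSPB1 at -0.031 and AHSA1 at -0.19. With normexp HSPB6 was at 0.072. In the series matrix (median 1.03) HSPA8 A_73_115239 was at 0.81, HSPA5 0.76, HSP90AA1 A_73_103158 1.11, ATF4 0.0088, XBP1 0.99, NFKBIA 0.13, TCP1 0.48, KLF6 0.25, DUSP1 0.99 and DNAJA1 0.70. With 1 array left out, HSP90AA1 A_73_P129021 ran from -0.16 to 0.52, HSPB1 from -0.22 to 1.03 and HSPB6 from -0.15 to 0.18. On 8 arrays HSPB1 was at -0.012 with background-subtracted signal and ran from -0.35 to 0.67 with 1 array left out.

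Whether the replicate numbers pair the arrays was not settled. Same-number r was 0.0574, -0.255 and 0.256 on 6 arrays. On 8 arrays it was 0.585, 0.219, -0.256 and 0.488, and 2 of 4 numbers had their best match in the same number. Correlations over so few arrays cannot show whether arrays of a number share a cow. With the replicate block 0 probes were called on 6 arrays (454 at an unadjusted limma p under 0.05), 0 of them members, and 0 on 8 arrays. Slide as a block could not be fitted. Brightness limits the rest: 20 of 33 member probes had no signal above background.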
